A study of Mus musculus with 12 samples.

Results

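A set of 10 genes of hepatic fat storage and fatty acid uptake was followed in the livers of iTgMir483 and control females. They are the perilipins Plin2, Plin3, Plin4 and Plin5, the CIDE genes Cidea, Cideb and Cidec, the lipase gene Pnpla2, the gene of its inhibitor, G0s2, and the fatty acid receptor gene Cd36. They were chosen by name and make up 10 of the 55401 genes in the count table. The 12 libraries were made from total liver RNA of female mice aged 15 weeks, 6 labelled iTgMir483 and 6 labelled control. The iTgMir483 mice carry a Mir483 transgene at the Rosa26 locus under a Tet-off system, in which doxycycline silences transcription. Dams drank doxycycline during pregnancy and it was then withdrawn, so that the transgene was active after birth, in all tissues where its transactivator is made and not in the liver alone. A ubiquitous CMV-Cre had removed the selection cassette, and the sample descriptions name this cross for all 12 mice. The alleles that the control littermates carry, and whether each mouse came from a separate litter, are not given in the sources used here. The p-values set group differences against the spread between mice of a group. They treat the mice as independent, which could not be checked.

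Hepatocytes keep triglyceride in lipid droplets, whose surface carries proteins that decide whether the fat is kept, moved or broken down. Perilipins coat the droplet and limit the access of lipases, and CIDE proteins gather at contacts between droplets, where they help small droplets merge into larger ones. Adipose triglyceride lipase (ATGL, the product of Pnpla2) takes the initial step of triglyceride breakdown and is held back by G0S2, while CD36 carries long-chain fatty acids across the plasma membrane and is made by hepatocytes, macrophages and endothelium.

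The mature miR-483-3p and the stretches of 3′ untranslated region (UTR) that pair with its seed are printed here because they show which of these genes hold a match to the seed of the transgenic microRNA. In the microRNA (RefSeq, GRCm38.p6, chr7:142654932-142654952, minus strand) the capitals mark the seed, bases 2 to 8. In the gene windows, written 5′ to 3′ on the sense strand of GRCm38, they mark the 7-base match to that seed.
mmu-miR-483-3p: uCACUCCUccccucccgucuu
Plin3 (chr17:56278204-56278226, minus strand): aggaccaaAGGAGTGggtgagcc
Cd36, first match (chr5:17781949-17781971, minus strand): ctttgggcAGGAGTGctggatta
Cd36, second match (chr5:17781711-17781733, minus strand): gaggagaaAGGAGTGtgggaaac
The motif searched was AGGAGTG on the sense strand of the longest annotated 3′ UTR. Plin3 held 1 match in 2256 bases and Cd36 held 2 in 1660 bases, so 2 of the 10 genes had one. The other 8 genes had none. Among 12098 tested genes with an annotated 3′ UTR of any length, 12.6% had a match. None of the 10 genes had a match to miR-483-5p (motif CCCGTCT), against 3.26% of the same background. A match is a string of letters and not a measured site, and its part in any result was not tested.

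The 6 control libraries held 12244123 to 30431286 counts each, and those of the iTgMir483 group 12415140 to 15846175. Mir483 itself had 0 counts in every control library and 318 to 761 in the iTgMir483 libraries, which follows the labels. Hepatocyte markers were abundant in all 12 libraries, with a summed level of 6 genes of 120110 to 167800 CPM (counts per 1e6, scaled between libraries by TMM, edgeR's trimmed mean of M-values) in controls and 59765 to 128790 CPM in iTgMir483 livers. Cps1, a urea cycle enzyme, was the only gene of the 6 called (log2 fold change -1.21, adjusted p 0.00476), while the median log2 fold change of the 6 was -0.54. Here and below a gene is said to have risen or fallen, or to be called, at a Benjamini-Hochberg adjusted p under 0.05 by edgeR's quasi-likelihood test over all 13205 tested genes together with a fold change over 1.5. Macrophage markers rose, 5 of 6 of them, from a summed 270 to 393 CPM in controls to 417 to 1096 CPM in iTgMir483 livers, with none of the 6 at 0. The summed level of 5 adipocyte markers was at most 2.34 CPM in any library, and leptin (Lep) was at 0 in all of them. Of the other marker lists, the neutrophil genes S100a8 and S100a9 rose and none of the 5 endothelial, 5 stellate or 3 blood markers was called. Ly6g, the remaining neutrophil marker, was too low to test. In bulk liver, a change in the number of cells of a type and a change of RNA per cell cannot be told apart. The libraries numbered 1 stood apart in both groups. Control replicate 1 was the lowest control for 8 of the 9 tested genes and iTgMir483 replicate 1 the lowest of its group for 5. The fold changes of these 9 genes are therefore given with and without both.

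Of the 10 genes, 9 passed the filter on low counts and 1 was called. The called gene, Plin3, was higher in iTgMir483 livers, so 1 of 9 was called higher and 0 of 9 lower, beside 8.41% and 2.73% of all tested genes. At an unadjusted p under 0.05, Plin3 and Cd36 were higher and none was lower. The share of all tested genes at that unadjusted p was not computed. It is no smaller than the 2457 of 13205 genes with an adjusted p under 0.05. The median log2 fold change of the 9 was -0.03, beside 0.01 over all tested genes. None of the 9 separated the groups without overlap, which 7.92% of all tested genes did.

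**Figure D1:**
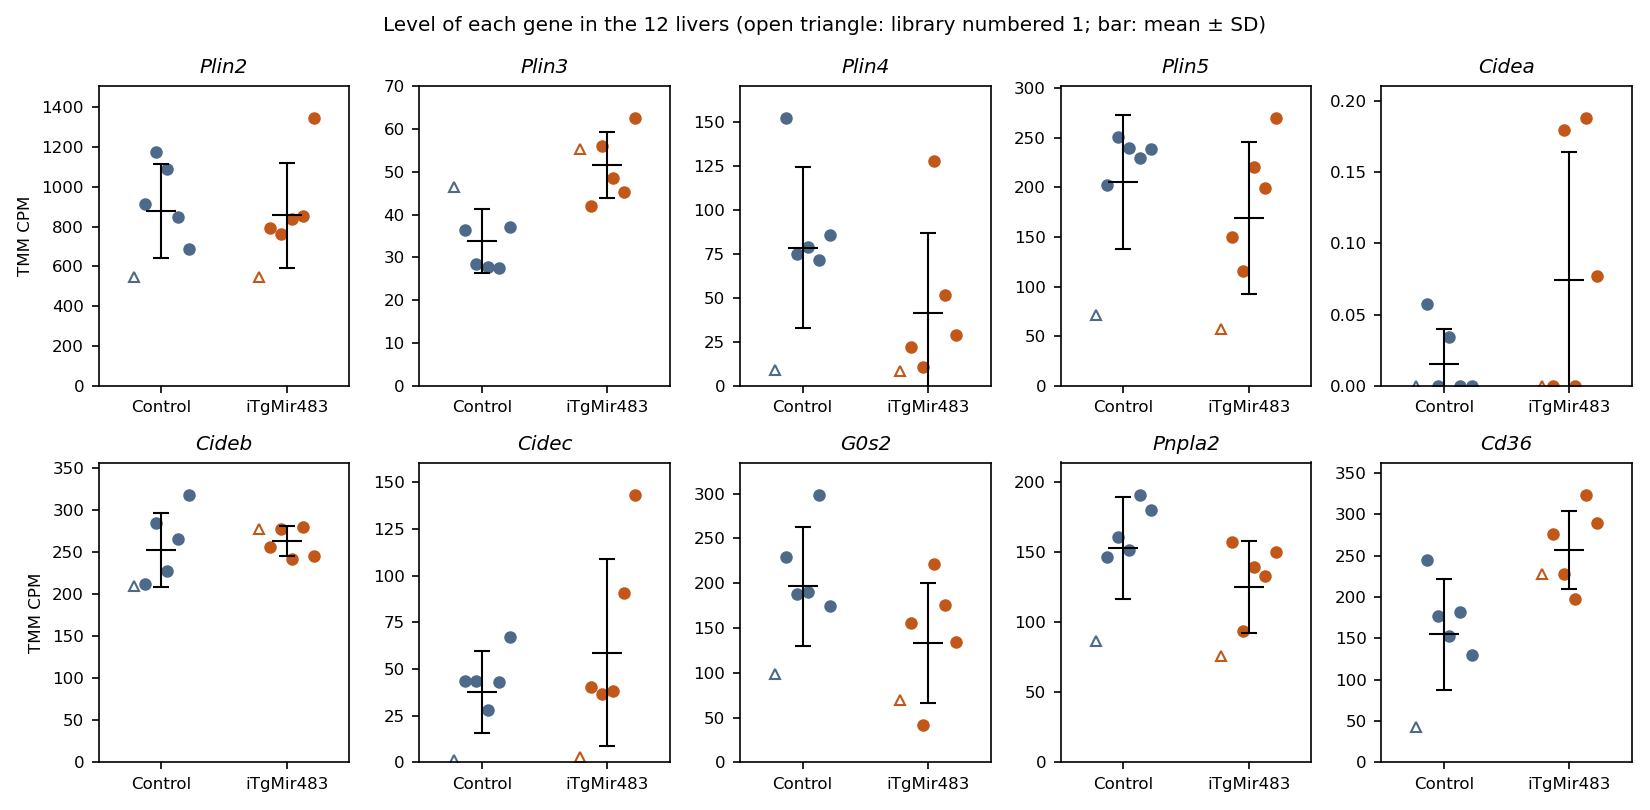
TMM-scaled CPM of the 10 genes in each of 6 control and 6 iTgMir483 livers, 1 panel per gene; each point is a library, the libraries numbered 1 are marked, and bars give the mean and SD (cut at 0 where they would pass below it). The iTgMir483 points of Plin3 lie above all controls but replicate 1, and the libraries numbered 1 lie near the floor of the panels for Plin4 and Cidec.

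Plin3 encodes the perilipin TIP47, which is made in most cells and coats small, newly formed droplets. Its level was 27.6, 32.4 and 46.4 CPM (lowest, median, highest) in controls and 42.0, 52.0 and 62.5 CPM in iTgMir483 livers. Control replicate 1, at 46.4 CPM, was the only control inside the iTgMir483 range, and the other 5 controls reached at most 37.0 CPM. The mean rose from 33.9 ± 7.47 to 51.7 ± 7.68 CPM (SD, n = 6), a log2 fold change of 0.61 (SE 0.141, 95% interval 0.31 to 0.91) and a fold of 1.52, with an adjusted p of 0.00933 by edgeR's quasi-likelihood test. Without both libraries numbered 1 the log2 fold change was 0.70 and the adjusted p 0.00354. The remaining 5 livers of each group did not overlap, which follows from leaving out that control. The libraries numbered 1 were set apart by the values of these same genes, and the share of all genes without overlap was not computed for 5 livers a group. Because the fold lies near 1.5, the call was lost without control replicate 3, 4 or 5, where the log2 fold change was 0.56, 0.55 and 0.55, and without iTgMir483 replicate 3 (0.58) or 6 (0.55), while the adjusted p stayed at or below 0.0255 in each.

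Plin2, the major perilipin of hepatocytes, was the most abundant perilipin and did not pass the test. Controls had 548, 880 and 1172 CPM (lowest, median, highest) and iTgMir483 livers 548, 816 and 1344 CPM. The ranges covered each other, with the lowest liver of each group being replicate 1. Plin2 differed by -0.03 on the log2 scale (SE 0.216, adjusted p 0.934). The 95% interval of -0.49 to 0.43 runs from a fold of 0.710 to 1.35, so a change within those bounds is not excluded with 6 livers a group. Without both libraries numbered 1 the log2 fold change was -0.04 (adjusted p 0.907). It turned positive, at 0.07, without control replicate 3 or iTgMir483 replicate 1, and was not called in either case.

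Plin5, the perilipin of oxidative tissues that links droplets to mitochondria and binds ATGL, was at 71.3, 234 and 251 CPM in controls and 57.6, 175 and 269.7 CPM in iTgMir483 livers. Control replicate 1 lay far below the remaining 5, which held 202 to 251 CPM. The difference on the log2 scale was -0.28 (SE 0.335, 95% interval -0.9999 to 0.43, adjusted p 0.592), and -0.28 again without both libraries numbered 1 (adjusted p 0.306).

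Plin4, best known as a coat of small droplets in adipose tissue and muscle, spread most among the perilipins. Controls had 9.03, 76.8 and 152 CPM and iTgMir483 livers 8.59, 25.6 and 127.7 CPM. In controls, replicate 1 was low and the other 5 held 71.2 to 152 CPM, whereas in iTgMir483 livers replicate 4 was high and the other 5 held 8.59 to 51.7 CPM. The difference was -0.92 on the log2 scale (SE 0.631, 95% interval -2.27 to 0.43, adjusted p 0.332). It was -1.69 (adjusted p 0.0536) without iTgMir483 replicate 4 and -0.63 without control replicate 2, so neither left a call. Without both libraries numbered 1 the difference was -0.94 (adjusted p 0.201). Exons of Plin4 overlap those of Hdgfl2 on the opposite strand, which matters for the counts if strand was not used. Hdgfl2 differed by -0.00 on the log2 scale (adjusted p 0.993).

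**Figure D2:**
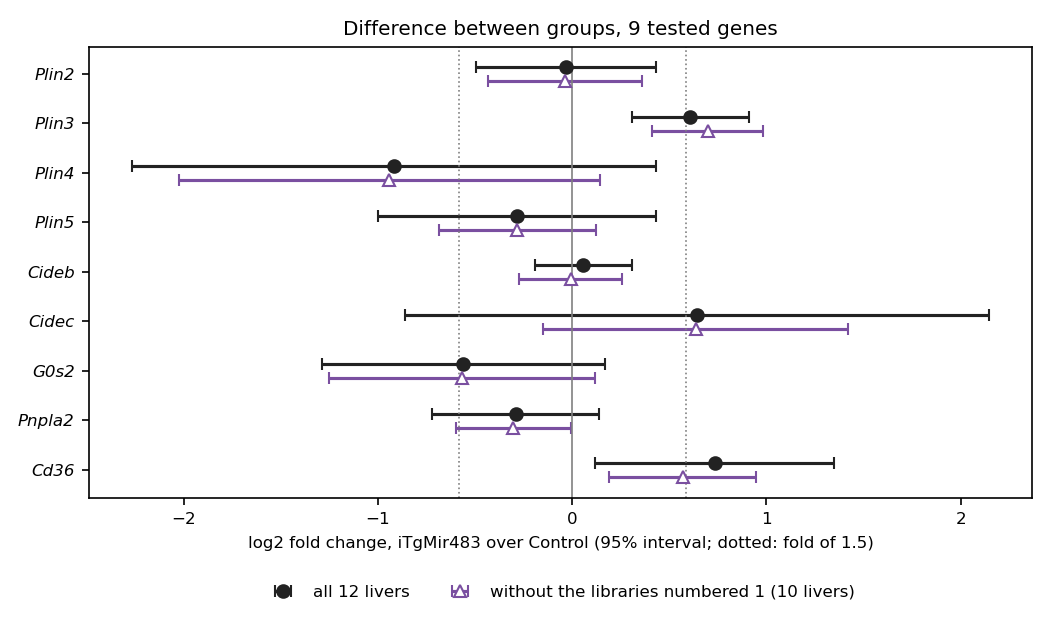
Log2 fold change of iTgMir483 over control with 95% interval for the 9 tested genes, with all 12 libraries and without both libraries numbered 1; the vertical axis lists the genes and dotted lines mark a fold of 1.5 either way. Only Plin3 (0.61) and Cd36 (0.73) have intervals above 0 with all 12 libraries.

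Cideb, the CIDE gene of hepatocytes, whose protein acts in droplet fusion and in the lipid loading of very-low-density lipoprotein, varied least within groups of the 9 tested genes. It stood at 209.6, 246 and 318 CPM in controls and at 242, 266 and 280.1 CPM in iTgMir483 livers, and the iTgMir483 range lay wholly within that of the controls. Cideb differed by 0.06 on the log2 scale (SE 0.117, 95% interval -0.19 to 0.31, adjusted p 0.770). Without both libraries numbered 1 it was -0.01. Exons of Cideb overlap those of Nop9 on the opposite strand, and Nop9 differed by -0.46 on the log2 scale (SE 0.0962, adjusted p 0.00528), under the fold threshold.

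Cidec, also called Fsp27, enlarges droplets in adipocytes and in fatty liver. It ran from 1.13 through a median of 43.2 to 66.9 CPM in controls and from 3.13 through 39.4 to 143 CPM in iTgMir483 livers. The libraries numbered 1 held 18 and 43 counts and lay far below the rest, which held 28.1 to 66.9 CPM and 36.7 to 143 CPM. The high end of the iTgMir483 range came from replicates 5 (90.5 CPM) and 6 (143 CPM), and the other 4 lay inside the control range. The log2 fold change was 0.64 (SE 0.703, 95% interval -0.86 to 2.15, adjusted p 0.561). It was 0.16 without iTgMir483 replicate 6, and without both libraries numbered 1 it was 0.64 with a narrower interval of -0.15 to 1.42 (adjusted p 0.234).

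Cidea, the CIDE gene of brown fat that steatotic liver can also switch on, was at the floor of detection. It had 0 counts in 4 controls and in 3 iTgMir483 livers, at most 1 and 3 counts in the others, and totals of 2 and 7 counts over the groups. It did not pass the filter and gets no fold change; a count of 3 equals 0.103 to 0.274 CPM in these libraries.

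Pnpla2, which encodes ATGL, had 86.8, 156 and 191 CPM in controls and 75.9, 136 and 157 CPM in iTgMir483 livers. Replicate 1 was again the lowest in both groups, and the ranges overlapped across most of their length. Pnpla2 differed by -0.29 on the log2 scale (SE 0.201, 95% interval -0.72 to 0.14, adjusted p 0.333), and by -0.30 (adjusted p 0.137) without both libraries numbered 1.

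G0s2, the gene of the ATGL inhibitor, stood at 98.1, 189 and 299 CPM in controls and 42.2, 145 and 221 CPM in iTgMir483 livers. The lowest iTgMir483 liver was replicate 3 and the next replicate 1, and 4 of the 6 lay inside the control range. On the log2 scale the difference was -0.56 (SE 0.341, 95% interval -1.29 to 0.17, adjusted p 0.270), and -0.57 (adjusted p 0.222) without both libraries numbered 1. The ratio of Pnpla2 to G0s2 counts within a liver was 0.638 to 1.03 in controls and 0.630 to 2.22 in iTgMir483 livers. Counts were not corrected for exon length, 3020 bases for Pnpla2 and 871 for G0s2, so the ratio compares livers and not message levels. Per kilobase of exon, the control means were 50.6 CPM for Pnpla2 and 226 CPM for G0s2. The ratio was highest in iTgMir483 replicate 3, and the groups overlapped.

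Cd36 had 42.4, 165 and 245 CPM in controls and 197, 252 and 324 CPM in iTgMir483 livers. Control replicate 1 was far the lowest, and only control replicate 2, at 245 CPM, reached into the iTgMir483 range. The means were 155 ± 67.1 and 257 ± 47.0 CPM (SD, n = 6), and the log2 fold change was 0.73 (SE 0.289, 95% interval 0.12 to 1.35). The unadjusted p was 0.0231 and the adjusted p 0.0905, so Cd36 was not called. Leaving out single controls changed the outcome. Without control replicate 2 it was 0.91 with an adjusted p of 0.0485, which is a call. Without control replicate 1 it was 0.54 (adjusted p 0.0392) and without both libraries numbered 1 it was 0.57 (adjusted p 0.0361), values under the fold threshold. Macrophages also express Cd36 and their markers rose in the iTgMir483 livers. The liver with the highest macrophage sum, iTgMir483 replicate 4 (1096 CPM against 417 to 556 CPM in the other 5), had the lowest Cd36 of its group, 197 CPM, and 48.7 CPM of Plin3. The share of macrophage RNA in either value was not tested.

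The 9 tested genes differed widely in how much they varied between livers of 1 group. The within-group SD on the log2 scale was 1.80 for Cidec and 1.37 for Plin4, larger than in 99.9% and 99.8% of all tested genes, against a median of 0.229. Plin5 (0.75), G0s2 (0.74) and Cd36 (0.64) were also above 97.1% or more of genes, Plin2 and Pnpla2 (both 0.41) lay above 89.7% and 89.5%, and Plin3 (0.26) and Cideb (0.19) lay near the middle, above 60.1% and 31.1%. The lowest liver was replicate 1 in both groups for Plin2, Plin4, Plin5, Cidec and Pnpla2. The same livers were low in fasting and PPARα response genes, a list of 11 whose mean log2 CPM was 7.92 in control replicate 1 against 9.16 to 9.70 in the other controls, and 7.51 in iTgMir483 replicate 1 against 8.03 to 9.19 in the others. In the sample descriptions the libraries numbered 1 carry consecutive numbers, the lowest of all the mice. Whether they share a litter or a day of handling is not given in the sources used here. What sets them apart was not tested.

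**Figure D3:**
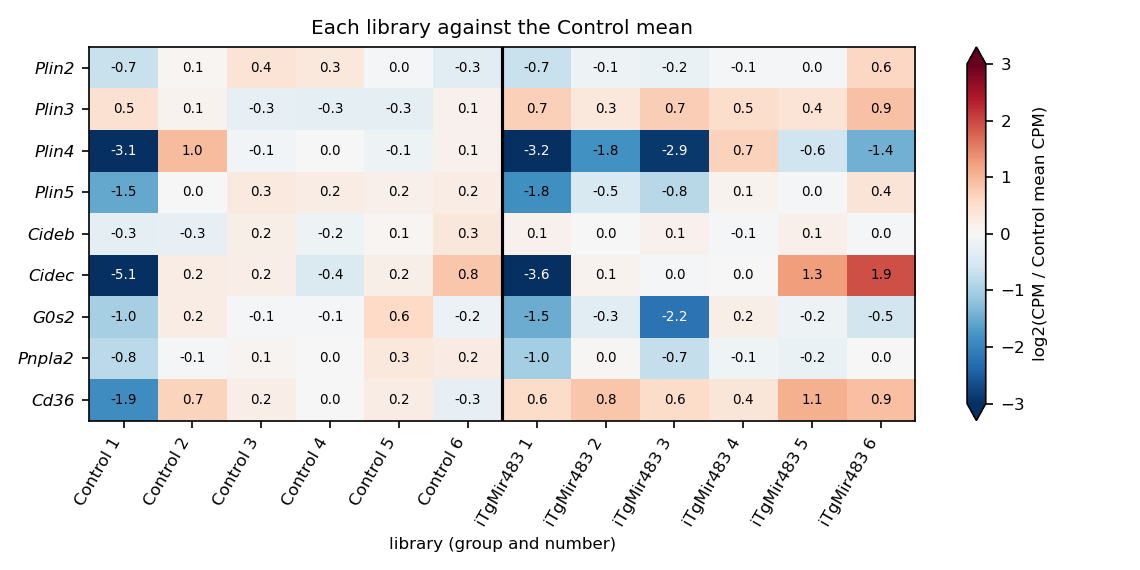
Heat map of the 9 tested genes (rows) in the 12 livers (columns, controls then iTgMir483), coloured and labelled by log2 of the CPM over the control mean CPM, with the colour scale ending at -3 and 3. In both groups the lowest values of Plin4 and Cidec are those of the libraries numbered 1, and Plin3 is the gene whose highest control is replicate 1.

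Per length of exon, Plin2 was the most abundant of the 10 genes in both groups, at 249 CPM per kilobase of exon (RPKM) in controls and 244 RPKM in iTgMir483 livers. In controls it was followed by G0s2 (226 RPKM), Cideb (169.8 RPKM), Plin5 (98.4 RPKM), Pnpla2 (50.6 RPKM), Cd36 (43.1 RPKM), Cidec (20.3 RPKM), Plin4 (13.6 RPKM), Plin3 (8.96 RPKM) and Cidea (0.0137 RPKM). Over the 6 controls, only the steps from Cideb to Plin5 and from Plin3 to Cidea separated neighbours without overlap. In iTgMir483 livers Cideb (177 RPKM) stood before G0s2 (153 RPKM), Cd36 (71.6 RPKM) before Pnpla2 (41.4 RPKM), and Plin3 (13.6 RPKM) before Plin4 (7.20 RPKM), and only the steps below Cd36 and Plin4 were without overlap. These levels rest on the union of annotated exons; on the longest transcript Plin2 would be 464 RPKM in controls.

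Within the perilipin family, Plin2 supplied 67.7% of the summed RPKM in controls and 71.3% in iTgMir483 livers, Plin5 26.0% and 22.4%, Plin4 3.50% and 1.98%, and Plin3 2.76% and 4.30%. The ranges over livers overlapped for all 4 shares. Within the CIDE family, Cideb supplied 89.9% and 85.7% and Cidec 10.1% and 14.2%, also with overlapping ranges.

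**Figure D4:**
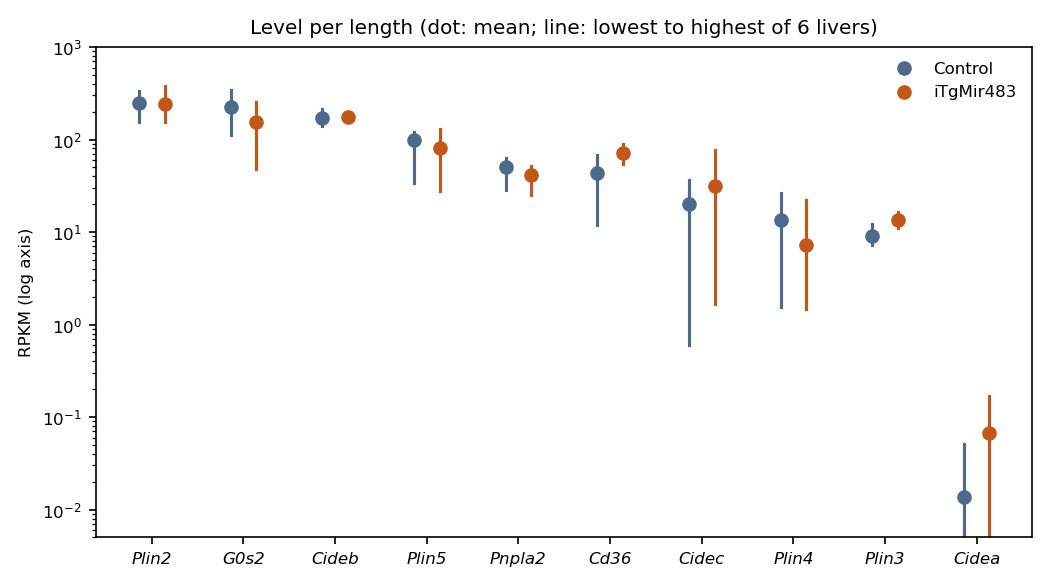
Mean RPKM of the 10 genes on a log axis in the 6 control and 6 iTgMir483 livers, with lines from the lowest to the highest liver; the lines of Cidea run off the axis because some of its livers were at 0. Plin2, G0s2 and Cideb lead both groups, and the means of Cidea lie far below those of the other 9 genes.

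Plin3, Plin4 and Plin5 lie close together on chromosome 17 of GRCm38: Plin4 (56100591 to 56109803) and Plin5 (56111601 to 56117596) are 1797 bases apart, and Plin3 (56277476 to 56292873) lies 159879 bases from Plin5, all on the minus strand. The log2 fold changes of Plin4, Plin5 and Plin3 were -0.92, -0.28 and 0.61, and Plin3 alone of the 3 was called. Plin2 is on chromosome 4 (86648386 to 86670060), Cideb on chromosome 14 (55754050 to 55758458), Cidea on chromosome 18 (67343604 to 67367785), G0s2 on chromosome 1 (193272161 to 193273217), Pnpla2 on chromosome 7 (141455198 to 141460743) and Cd36 on chromosome 5 (17781690 to 17888801). Cidec (chromosome 6, 113424634 to 113435760) lies 347300 bases from Gt(ROSA)26Sor, the locus into which the transgene was placed, and was not called.

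Genes acting beside the 10 were then counted in 5 lists, to be read against the same 8.41% called higher and 2.73% called lower over all tested genes. Among 11 genes of droplet biogenesis and other droplet proteins, 10 were tested, none rose and 1 fell. It was Hsd17b11, a droplet-bound hydroxysteroid dehydrogenase, which went from 198 to 421 CPM in controls to 122 to 203 CPM in iTgMir483 livers, a difference of -1.09 on the log2 scale (SE 0.169, adjusted p 0.00109), with only control replicate 1 inside the iTgMir483 range. Its relative Hsd17b13, another hepatocyte droplet protein, had 521 ± 107 and 424 ± 123 CPM (adjusted p 0.329), and the droplet-forming genes Fitm2 and Bscl2 had log2 fold changes of 0.02 and -0.19. Over the list 2 genes were lower and none higher at an unadjusted p under 0.05, with a median log2 fold change of -0.16. No share of all tested genes at that unadjusted p was computed to set beside this count.

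In triglyceride lipolysis 7 of 9 genes were tested, of which 2 rose and 1 fell, with a median log2 fold change of 0.14. Lipa, the acid lipase of lysosomes, rose from 252 to 292 CPM in controls to 375 to 481 CPM in iTgMir483 livers without overlap (log2 fold change 0.67, SE 0.0958, adjusted p 0.000688). Hilpda, another inhibitor of ATGL, had a mean of 3.87 ± 1.23 CPM in controls and rose to 8.72 ± 4.79 CPM in iTgMir483 livers (log2 fold change 1.16, adjusted p 0.0388), with iTgMir483 replicate 1, at 2.11 CPM, the lowest of all 12 livers. The call was lost without any of 8 single livers (control replicate 1, 4, 5 or 6 or iTgMir483 replicate 2, 4, 5 or 6), with adjusted p of 0.0506 to 0.0892, and with limma-voom on all 12 libraries (0.94, adjusted p 0.128). Aadac, a microsomal hydrolase, fell from 392 ± 59.5 to 260.3 ± 68.1 CPM (log2 fold change -0.59, adjusted p 0.0193), a call lost without control replicate 1 (-0.50) or iTgMir483 replicate 3, 4, 5 or 6 (-0.56 to -0.54), where the fold is under 1.5. Abhd5, the coactivator of ATGL, was at 27.4 ± 1.67 and 30.2 ± 2.93 CPM (adjusted p 0.278), and Lipe and Mgll, the lipases of the next steps, were not called either. Pnpla3 was under the count filter, with counts of 1 to 6 in the control group and 9 to 14 in the other.

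In fatty acid transport, binding and activation, 16 of 17 genes were tested, 2 rose and 1 fell, and the median log2 fold change was -0.06. Fabp4, the fatty acid binding protein of adipocytes, macrophages and capillary endothelium, rose from 7.84 ± 1.73 to 15.2 ± 5.64 CPM (log2 fold change 0.95, SE 0.221, adjusted p 0.00918). Its highest livers were iTgMir483 replicates 4 (22.9 CPM) and 6 (21.5 CPM), whose macrophage markers summed to 1096 and 528 CPM, and the lowest of the group was replicate 1 (9.17 CPM), with a sum of 500.2 CPM. The part of macrophage RNA in this difference was not tested. Acsl3, an acyl-CoA synthetase of nascent droplets, rose from 12.0 ± 3.21 to 19.0 ± 5.08 CPM (log2 fold change 0.66, adjusted p 0.0307), and lost its call without control replicate 2, 4, 5 or 6 or iTgMir483 replicate 1, 3 or 4 (adjusted p 0.0558 to 0.0712). Slc27a1, a fatty acid transporter of muscle and fat, fell from 56.5 ± 24.1 to 26.8 ± 7.32 CPM (log2 fold change -1.07, adjusted p 0.0349); control replicate 1, at 12.0 CPM, was the lowest of the 12 livers, and the call was lost without any single control among replicates 2 to 6 or any of iTgMir483 replicates 1, 3, 4, 5 and 6 (adjusted p 0.0507 to 0.0756), and with limma-voom on all 12 libraries (-0.90, adjusted p 0.115). The main hepatocyte carriers were not called: Fabp1 had 3445 ± 807 and 3152 ± 976 CPM, Slc27a2 had 2460.3 ± 368 and 2380.3 ± 323 CPM, and Acsl1 had 1444 ± 311 and 1191 ± 147 CPM.

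Among 12 transcription factors of lipid storage 1 rose and 1 fell. Pparg, the factor that drives droplet genes in adipocytes and in fatty liver, rose from 10.6 ± 2.85 to 16.9 ± 2.60 CPM (log2 fold change 0.67, SE 0.164, adjusted p 0.0127), with control replicate 2 at 15.6 CPM inside the iTgMir483 range; without control replicate 1 it was 0.57, under the fold threshold. Nr1i3, the hepatic receptor CAR, fell without overlap from 811 to 1216 CPM in controls to 285 to 577 CPM in iTgMir483 livers (log2 fold change -1.27, SE 0.173, adjusted p 0.000478). Ppara had 231 ± 41.3 and 244 ± 59.8 CPM (adjusted p 0.772). Srebf1 had 0.93 on the log2 scale (adjusted p 0.216), with control replicate 1 at 217 CPM where the rest of its group held 24.6 to 54.7 CPM. Without both libraries numbered 1 it was 1.41 with an adjusted p of 0.00629, a call. That setting removes the highest control and was chosen after the data were seen, so the call is a description only.

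PPARα is a nuclear receptor for fatty acids that is also known to regulate Plin2, Plin5, Cidec, G0s2 and Cd36. Among 11 genes of the PPARα and fasting response, 1 fell and none rose, and the median log2 fold change was -0.64, beside 0.01 over all tested genes. Cyp4a14, a fatty acid omega-hydroxylase, went from 9731 ± 3785 to 1675 ± 1038 CPM (log2 fold change -2.54, SE 0.590, adjusted p 0.00926), with control replicate 1 at 2104 CPM and the other 5 controls at 10199 to 11885 CPM. At an unadjusted p under 0.05, 4 of the 11 were lower and none higher, a count with no computed share of all tested genes beside it. The hydroxylase Cyp4a10 and the lipase inhibitor Angptl4 had log2 fold changes of -1.27 and -0.64 with adjusted p of 0.0758 and 0.121. Without both libraries numbered 1, the list held 4 calls: Cyp4a14, Cyp4a10 (-1.28, adjusted p 0.0120) and Angptl4 (-0.62, adjusted p 0.0471) were lower, and the hormone gene Fgf21 (0.77, adjusted p 0.00935) was higher. In that setting 1696 of 13226 tested genes were called. The libraries numbered 1 were set apart after the data were seen and are the lowest of their groups in this list. The added calls are therefore a description only.

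**Figure D5:**
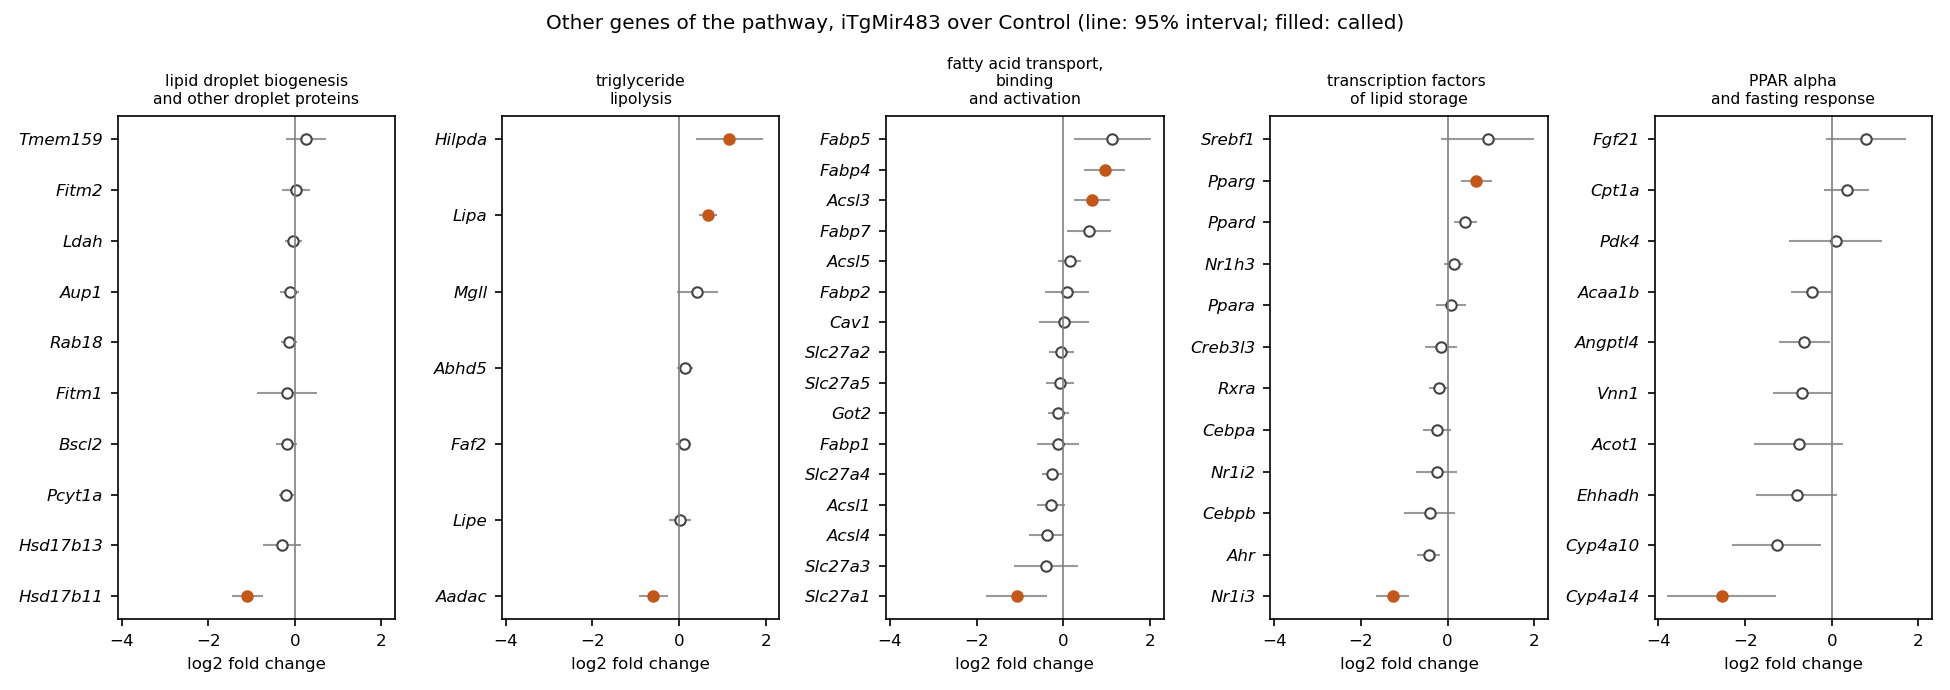
Log2 fold change of iTgMir483 over control with its 95% interval for the tested genes of the 5 related lists that are reported by name, 1 panel per list and 1 row per gene, with called genes filled. The called genes of each list are few and lie on both sides of 0 in the lipolysis, transport and transcription factor lists.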

How the data were processed

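Liver RNA was measured by RNA-seq in 6 iTgMir483 and 6 control females, grouped by sample title. The deposited table holds raw read counts for each gene. To make it, the authors sequenced stranded poly(A) libraries as short read pairs, aligned them to GRCm38 with STAR and counted Ensembl genes. Which strand column was used is not given in the sources used here, so genes overlapped on the opposite strand are uncertain. Symbols, positions and exon lengths came from GENCODE M21 annotation of the same build and another release. Genes were kept with edgeR's filterByExpr, libraries scaled by TMM (trimmed mean of M-values), and the groups tested by quasi-likelihood in edgeR (version 4.0.16, R 4.3.3; limma 3.58.1; DESeq2 1.42.0 as an alternative) with Benjamini-Hochberg adjustment over 13205 genes and no covariate, as all libraries carry 1 pool label. CPM are TMM-scaled. The SE was taken as the absolute log2 fold change over √F, and 95% intervals from the t distribution. RPKM divide CPM by the union exon length. The test was checked on simulated counts that gave all genes the same dispersion, so the check does not cover genes as variable as Cidec or Plin4. The reads carry no molecular identifiers, so floors cover counting error only. The genes and gene lists were chosen with earlier results of these data known. Named genes were the 10 chosen genes, Mir483, called genes of the related lists, others of a list where it is described, and the cell type markers. In the fasting list 1 gene stays in the counts and medians and is not reported here by name. Each result was recomputed with DESeq2, limma-voom, RLE size factors, other fold rules, 2 other count filters and a replicate block, and with libraries left out.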

Additional observations from a re-analysis of the deposited data

Results flagged for a closer look

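Single livers far from the other 5 of their group were looked for with Dixon's gap ratio in 34 groups of 6 (the 10 genes and 7 marker lists in each group). There were 5 such values. Chance would give about 1.7 if all groups were normal and independent. That was not checked, and Cidea and the adipocyte list lie near the floor, so the 5 are a description and not an excess. Control replicate 1 had 71.3 CPM of Plin5 against 202 to 251 CPM in the other controls (gap ratio 0.729). In iTgMir483 replicate 4, Plin4 stood at 127.7 CPM against 8.59 to 51.7 CPM in the rest of its group (0.638). The same liver had a summed macrophage marker level of 1096 CPM against 417 to 556 CPM (0.795). Control replicate 5 had 2.34 CPM of adipocyte markers against 0.0697 to 0.753 CPM (0.700). In iTgMir483 replicate 1 the stellate cell markers summed to 368 CPM against 428 to 464 CPM (0.628). No cause was tested.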

How the results depend on the processing

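Plin3 was called in 15 of 21 alternatives, Cd36 in 2 and none of the other 7 tested genes in any. The number of the 10 genes called higher, 1 as reported, was 0 in a test against a fold of 1.5 and 0 to 2 when single livers were left out (2 without control replicate 2; 0 without control replicate 3, 4 or 5 or iTgMir483 replicate 3 or 6). The number called lower was 0 in every alternative. In the related lists the test against a fold of 1.5 left 0 calls in droplet biogenesis, 0 in lipolysis, 0 in transport, 1 among transcription factors (Nr1i3) and 0 in the PPARα and fasting list. With no filter on low counts lipolysis had 5 calls (Pnpla3 and Pnpla5 were added), and with no fold threshold the transcription factors had 4. Without both libraries numbered 1, which were set apart after the data were seen, the fasting list had 4. Leaving out single livers gave 1 to 3 calls in lipolysis, 1 to 3 in transport, 2 to 3 among transcription factors and 1 to 4 in the fasting list (4 without control replicate 1, 2 without iTgMir483 replicate 4). The log2 fold change of Plin2 turned positive without control replicate 3 (0.0675), control replicate 4 (0.0336), iTgMir483 replicate 1 (0.0671) or iTgMir483 replicate 3 (4.718e-05), its range over single livers left out being -0.21 to 0.0675, and that of Cideb turned to -0.0078 without both libraries numbered 1, none of them called. The causes of these shifts were not tested. Same-numbered libraries deviated from their group means together for number 1 (r 0.49). For the other numbers r was 0.0146 to 0.194, so replicate numbers as a whole were not taken to pair the samples. With the replicate block 2 of the 10 genes were called higher, Plin3 and Cd36 (log2 fold change 0.87, adjusted p 0.0375), and the fasting list had 4 calls, while Fabp5 (adjusted p 0.0160) and Srebf1 (adjusted p 0.0156) were called higher in theirs. Over all genes 1470 were called, 226 in the test against a fold of 1.5 and 2457 with no fold threshold. With RLE size factors the median over all tested genes moved from 0.0058 to -0.0062. With 6 livers a group and within-group SDs as large as 1.80 on the log2 scale, the changes of Cidec and Plin4 were not called in any alternative. The power to detect changes of that size was not computed.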

Other observations

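A few further genes of the related lists have values not given above. Fabp5, a fatty acid binding protein of macrophages and epithelia, had 4.42 ± 3.06 CPM in controls and 9.61 ± 5.47 CPM in iTgMir483 livers (SD, n = 6; log2 fold change 1.13, SE 0.416, adjusted p 0.0713, edgeR) and was not called. It was called with DESeq2 (1.11, adjusted p 0.0297) and without control replicate 3 (1.60, adjusted p 0.0107) or iTgMir483 replicate 1 (1.29, adjusted p 0.0359). Mgll, the monoglyceride lipase, had 482 ± 139 and 648 ± 154 CPM (log2 fold change 0.43, adjusted p 0.203). Cpt1a, which admits fatty acids to mitochondria, had 961 ± 244.5 and 1220.5 ± 378 CPM (0.35, adjusted p 0.343). Pdk4, a fasting-induced kinase, had 45.4 ± 26.6 and 48.6 ± 38.5 CPM (0.09, adjusted p 0.921). Plin1, the perilipin of adipocytes, was under the count filter with at most 0.201 CPM in any liver. Pnpla5, another lipase of the ATGL family, had 0 counts in all controls and 1 to 3 in iTgMir483 livers, at the floor in both groups.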
